A study of Mus musculus with 8 samples.

Results

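The genes described here are 8 brakes on the cell cycle: the CDK inhibitor genes Cdkn1b, Cdkn2a, Cdkn2b, Cdkn2c and Cdkn2d, and the pocket protein genes Rb1, Rbl1 and Rbl2. They were picked by symbol in GENCODE M21, and all 8 were found among the 55401 genes of the count table and among the 24005 genes tested. The samples were prospermatogonia, the germ cells of the fetal mouse testis before spermatogenesis starts, at E17.5 (embryonic stage). Of the 8 libraries of ribosomal RNA-depleted total RNA, 4 were labelled KO (genotype Tet1-/-) and 4 were labelled WT (genotype Tet1+/+), all in batch 1. The sources used here do not give the strain, the design of the Tet1 allele, the isolation of the cells or whether each library came from its own animal, so p-values measure the spread between these libraries, which may be technical.

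The INK4 proteins (p16, p15, p18 and p19, from Cdkn2a, Cdkn2b, Cdkn2c and Cdkn2d) bind CDK4 and CDK6 and keep D cyclins from activating them. The CIP/KIP protein p27, from Cdkn1b, binds cyclin-CDK complexes and is best known for blocking cyclin E with CDK2. With these kinases held off, RB, p107 and p130 (from Rb1, Rbl1 and Rbl2) stay unphosphorylated, bind E2F factors and keep genes for DNA synthesis silent. Mouse male germ cells leave the cycle before birth and stay in G1/G0 arrest, and p27, INK4 inhibitors and RB have been linked to that arrest.

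Total counts ran from 13820764 to 20115250 per library. Tet1 itself went against the labels, with 129, 145, 75.8 and 147 CPM (counts per 1000000 reads after TMM scaling) in the libraries labelled KO 1 to 4 and 30.3, 30.2, 32.8 and 34.2 CPM in those labelled WT 1 to 4. Reads of a transcript that lacks a deleted part would be counted under the gene as well. Neither the cause of the higher Tet1 level nor the assignment of the labels was tested. Every direction below refers to the labels as deposited and would reverse if they were exchanged. Germ cell markers were expressed under both labels, and 10 of 10 were tested. Of these, 4 were higher (Dazl, Sall4, Nanos2 and Pou5f1) and 3 lower (Mael, Piwil4 and Dnmt3l). Their summed level, in which such changes can cancel, was 2085 to 2682 CPM under the KO label and 2006 to 2581 CPM under the WT label. Library KO 4 stood apart, with 1757 CPM summed over 6 Leydig cell markers (5 tested, of which 4 were higher under the KO label), against 13.7 to 19.9 CPM in KO 1 to KO 3 and 14.6 to 31.3 CPM in the libraries labelled WT. Of 7 Sertoli cell markers, 4 were higher and 1 lower, with sums of 25.2 to 42.7 CPM in the libraries labelled KO and 15.2 to 27 CPM in those labelled WT. Of 6 interstitial mesenchyme markers, 2 were higher, with sums of 111 to 145 CPM in the libraries labelled KO and 84.0 to 124 CPM in those labelled WT. Of 3 peritubular markers, 2 were tested and 1 was lower, with sums of 8.06 to 12.8 CPM in the libraries labelled KO and 23.6 to 34.5 CPM in those labelled WT. That gap was mainly Myh11, at a mean of 7.35 CPM in the libraries labelled KO and 21.7 CPM in those labelled WT, while Acta2 overlapped and did not pass (edgeR adjusted p = 0.0855). Endothelial sums (4 markers, 1 higher and 3 lower) were 55.4 to 69.6 CPM in the libraries labelled KO and 56.6 to 67.8 CPM in those labelled WT. Macrophage sums (4 markers, 2 lower) were 5.56 to 9.45 CPM under the KO label and 5.58 to 10.7 CPM under the WT label. Erythroid sums (5 markers, 1 higher and 1 lower) were 9.47 to 19.1 CPM under the KO label and 17.9 to 22.7 CPM under the WT label. In the libraries labelled WT, the high ends of the Sertoli, Leydig, mesenchyme, peritubular and erythroid sums were all in WT 2. So were the low ends of the germ cell and macrophage sums. No marker was at 0 in all 4 libraries of either label. The part of these cells in the results below was not tested, and in bulk RNA fewer cells of a type and less RNA per cell cannot be told apart.

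Of the 8 genes, 3 (Cdkn2d, Rbl1 and Rb1) were higher under the KO label, 0 were lower and 5 did not pass in edgeR's quasi-likelihood test at a Benjamini-Hochberg adjusted p under 0.05. Over all tested genes 53.5% passed, 25.3% higher and 28.2% lower, and with 8 genes neither the 3 calls nor their shared direction was tested against these shares. The median log2 difference (KO minus WT) of the 8 genes was 0.18, against -0.05 over all tested genes. Groups did not overlap for 2 of the 8, Cdkn2d and Rbl1, where 48.4% of all tested genes had no overlap. Without KO 4 the count was 2, since Rb1 no longer passed. Rb1 also did not pass without KO 1, KO 2, WT 1 or WT 4, and passed in 9 of the 18 settings run. Of all calls 47.3% were higher. With upper-quartile scaling this share was 31.2% and the median of all genes shifted by -0.24; with scaling on 78 ribosomal protein genes it was 34.8%, with a shift of -0.175. Cyclic loess gave 50.7%, and the median of all genes was 0.016, against -0.05 with TMM scaling. Genes did not all move alike under it: Rb1 went down from 0.36 to 0.11, and Cdkn2c up from 0.34 to 0.64.

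**Figure D1:**
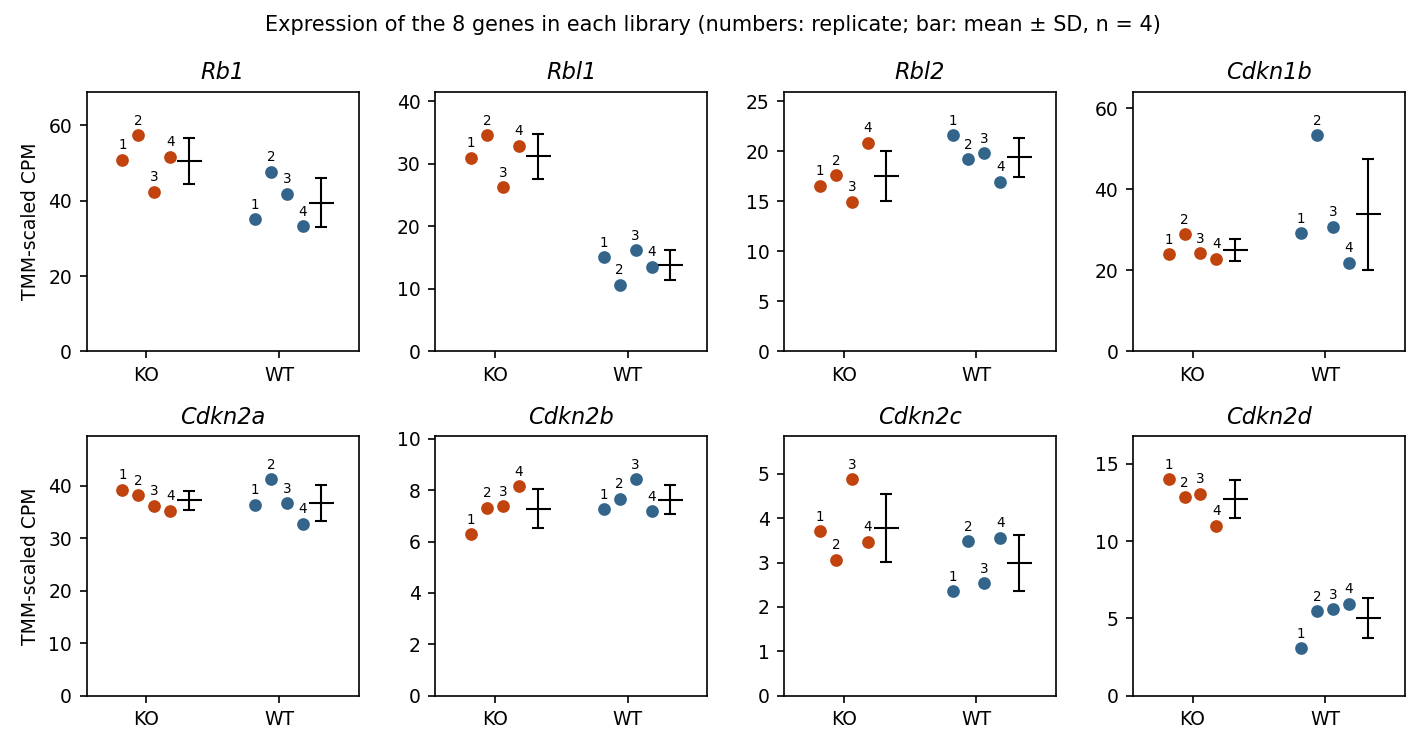
Expression of each of the 8 genes in TMM-scaled CPM (vertical axes, each starting at 0) in the 4 libraries labelled KO and the 4 labelled WT; numbers give the replicate, and bars the mean and SD (n = 4). The points of both labels are apart for Rbl1 and Cdkn2d, and WT 2 is the high point of Cdkn1b.

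Among the pocket protein genes the largest change was in Rbl1 (ENSMUSG00000027641.13, chromosome 2, 157145893 to 157204534, minus strand, GRCm38), which encodes p107, the pocket protein that in other cells is made mainly as they enter and pass through the cycle. Rbl1 had 30.9, 34.6, 26.3 and 32.9 CPM in KO 1 to KO 4, against 15.0, 10.7, 16.2 and 13.5 CPM in WT 1 to WT 4. Every library labelled KO was above every library labelled WT, and WT 2 was the lowest. The means were 31.2 ± 3.58 CPM in the libraries labelled KO and 13.9 ± 2.38 CPM in those labelled WT (SD, n = 4 each). Rbl1 was 2.25 times as high (95% interval 1.79 to 2.82), a log2 difference of 1.17 (SE 0.151, edgeR adjusted p = 4.18e-05). It passed in all 18 settings run, at log2 differences of 0.93 to 1.27, and was 1.17 without KO 4.

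Rb1 (ENSMUSG00000022105.6, chromosome 14, 73183673 to 73325822, minus strand) encodes RB, the founding member, which binds mainly the activating E2Fs. It had 50.9, 57.4, 42.4 and 51.7 CPM in KO 1 to KO 4, against 35.1, 47.7, 41.8 and 33.3 CPM in WT 1 to WT 4. The groups overlapped, because KO 3 was below WT 2. The log2 difference was 0.36 (SE 0.137, 95% interval 0.06 to 0.65, edgeR adjusted p = 0.0408), the smallest of the 3 that passed. This call was lost when any one of KO 1, KO 2, KO 4, WT 1 and WT 4 was left out (edgeR adjusted p from 0.0593 to 0.115). It was also lost under ribosomal protein (0.387), upper-quartile (0.469) and cyclic loess scaling (0.494). Exons of Rcbtb2 and Lpar6 on the opposite strand cover 896 of its 6015 exon bases (14.9%), and whether counting used strand is not given in the sources used here.

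Rbl2 (ENSMUSG00000031666.15, chromosome 8, 91070057 to 91123844, plus strand) encodes p130, the pocket protein that is most abundant in resting cells, where it binds E2F4 in the DREAM complex. It had 16.6, 17.6, 15.0 and 20.9 CPM in KO 1 to KO 4, against 21.6, 19.2, 19.8 and 17.0 CPM in WT 1 to WT 4. The groups overlapped, and the log2 difference of -0.15 did not pass (95% interval -0.46 to 0.16, edgeR adjusted p = 0.397). With upper-quartile scaling it was -0.39 and passed (adjusted p = 0.0282). Exons of Aktip and Gm45464 on the opposite strand cover 1585 of its 7558 exon bases.

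The ratio of Rbl1 to Rbl2 counts within each library also differed between the labels, a comparison that no scaling between libraries can alter. Rbl2 has the longer exons (7558 against 5993 bases), and per kb the ranges of Rbl1 and Rbl2 overlapped in the libraries labelled WT. There were 1.87, 1.97, 1.75 and 1.58 Rbl1 counts for each Rbl2 count in KO 1 to KO 4, against 0.694, 0.556, 0.818 and 0.798 in WT 1 to WT 4. The log2 ratio averaged 0.83 ± 0.14 in the libraries labelled KO and -0.50 ± 0.26 in those labelled WT (SD, n = 4 each), a difference of 1.33 (two-sided exact permutation p = 0.029, at the limit of what 70 splits allow; adjusted p = 0.0476 over 5 ratios). The ratio of Rbl1 to Rb1 was 0.602 to 0.637 counts per count in the libraries labelled KO and 0.224 to 0.427 in those labelled WT. Its log2 difference of 0.81 had the same exact permutation p, but depended on WT 2, the lowest library, and was 0.60 without it. The ratio of Rb1 to Rbl2 differed by 0.52 on the log2 scale, with overlap at KO 4 and WT 2, and did not pass (exact permutation p = 0.0571, adjusted p = 0.0714). The adjusted exact permutation p of 0.0476 depends on which ratios were chosen. It passed only because Rbl1 to Rbl2, Rbl1 to Rb1 and Cdkn2c to Cdkn2d were all at the limit of the test.

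Divided by exon length, the level of Rb1 was the highest of the 3 under both labels, at 8.41 ± 1.03 CPM per kb in the libraries labelled KO and 6.56 ± 1.10 CPM per kb in those labelled WT (SD, n = 4 each). Rbl1 made up 32.6% to 32.7% of the summed pocket gene level per kb in the libraries labelled KO and 14.6% to 22.5% in those labelled WT. Rbl2 made up 13.2% to 16.4% in the libraries labelled KO and 20.8% to 25.5% in those labelled WT. The sum over the 3 genes was 15.9 ± 1.83 CPM per kb in the libraries labelled KO and 11.4 ± 1.07 CPM per kb in those labelled WT.

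**Figure D2:**
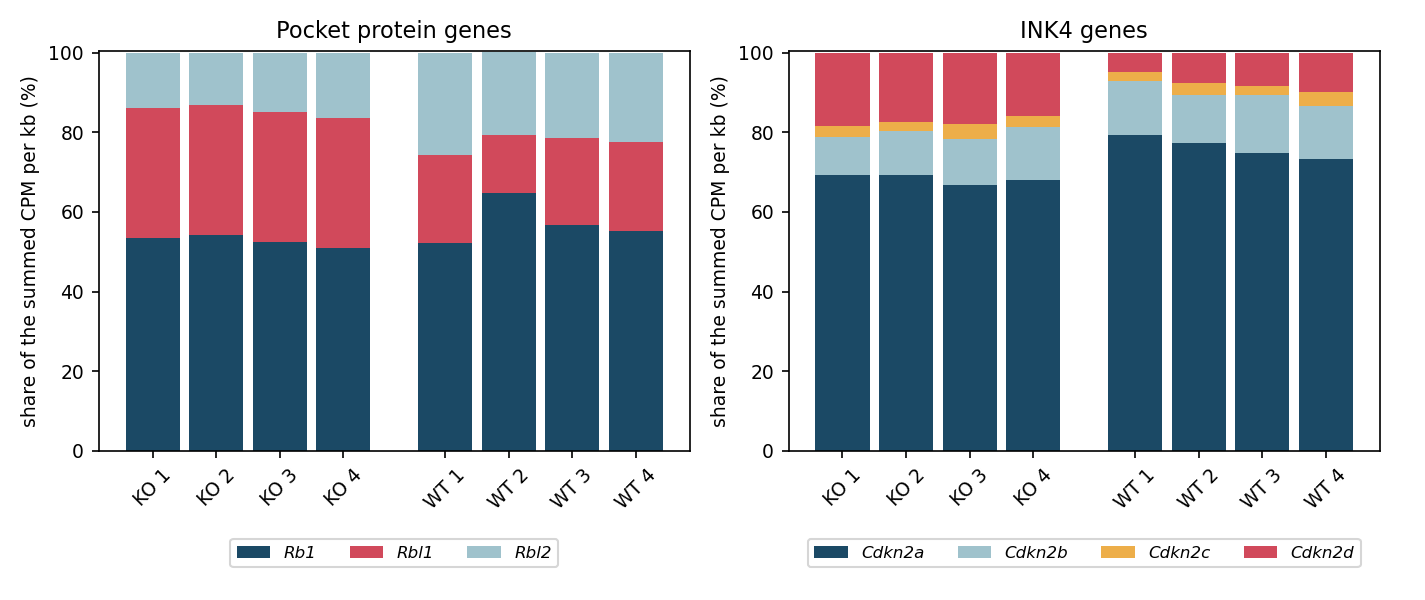
Share of each gene (vertical axis, percent) in the summed CPM per kb of exon of the pocket protein genes (left) and the INK4 genes (right), one bar per library, those labelled KO left of those labelled WT. The Rbl1 band is 32.6% to 32.7% in the libraries labelled KO and 14.6% to 22.5% in those labelled WT, and the Cdkn2d band is 15.8% to 18.4% under the KO label and 4.99% to 9.88% under the WT label.

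The bases before the RefSeq start sites are shown for Rbl1 and Rbl2, whose RNAs moved apart, and for the outer start of Cdkn2a, which holds the same kind of motif as Rbl1 although Cdkn2a did not pass (RefSeq, GRCm38.p6, gene strand, 5′ to 3′). Capitals mark a match to the E2F motif, searched as TTTCCCGC, TTTCGCGC, TTTGCCGC or TTTGGCGC, or to the CHR motif (cell cycle genes homology region, a site bound by DREAM), searched as TTTGAA, each on both strands. The stretches are chr2:157204535-157204784 (minus strand) for Rbl1, chr8:91069807-91070056 (plus strand) for Rbl2, and chr4:89294654-89294869 (minus strand) for Cdkn2a, where 34 bases next to the start are left out because GENCODE M21 annotates them as exon.
Rbl1: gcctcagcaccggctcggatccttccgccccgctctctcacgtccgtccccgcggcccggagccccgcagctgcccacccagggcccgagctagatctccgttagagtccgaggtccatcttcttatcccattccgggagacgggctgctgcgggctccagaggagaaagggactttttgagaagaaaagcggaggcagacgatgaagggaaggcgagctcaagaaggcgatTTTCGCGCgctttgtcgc
Rbl2: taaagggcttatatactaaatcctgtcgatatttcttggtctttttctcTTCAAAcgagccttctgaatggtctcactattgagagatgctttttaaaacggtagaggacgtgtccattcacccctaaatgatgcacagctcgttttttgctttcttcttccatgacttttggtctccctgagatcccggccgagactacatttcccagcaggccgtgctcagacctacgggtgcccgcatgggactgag
Cdkn2a: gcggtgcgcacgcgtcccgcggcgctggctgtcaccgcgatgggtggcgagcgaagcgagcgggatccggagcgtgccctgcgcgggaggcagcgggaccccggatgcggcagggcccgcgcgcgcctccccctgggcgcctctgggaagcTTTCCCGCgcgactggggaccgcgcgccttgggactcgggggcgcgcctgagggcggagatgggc

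RefSeq promoters (250 bases before to 50 after the start) were found for 7 of the 8 genes, 9 in all, and none for Rb1. An E2F match was in 2 of the 9, that of Rbl1 and the outer one of Cdkn2a, and in 2.26% of all 32851 promoters. In Rbl1 it lay at bases -18 to -11 before the start as TTTCGCGC and in Cdkn2a at -99 to -92 as TTTCCCGC. A CHR match was in 2 of the 9, those of Rbl2 and Cdkn2b, and in 17.9% of all promoters. None of these matches overlapped another. Cdkn2d, which rose, had neither motif in this window. GENCODE M21 starts Cdkn2d at 21291407, upstream of the RefSeq start at 21291209, so much of the window lies inside the annotated gene. The Cdkn2c windows lie wholly inside its annotated gene, so the bases before that gene were not searched. A match describes letters, not a bound site.

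Among the INK4 genes, Cdkn2d (ENSMUSG00000096472.2, chromosome 9, 21288410 to 21291407, minus strand) was higher in the libraries labelled KO. It encodes p19Ink4d, a CDK4 and CDK6 inhibitor whose RNA in cultured mouse cells comes and goes with the cycle and which keeps postmitotic neurons arrested together with p27. Cdkn2d had 14.0, 12.8, 13.1 and 11.0 CPM in KO 1 to KO 4, against 3.07, 5.46, 5.60 and 5.95 CPM in WT 1 to WT 4. The groups did not overlap, and WT 1 was the lowest. The means were 12.7 ± 1.25 CPM in the libraries labelled KO and 5.02 ± 1.32 CPM in those labelled WT (SD, n = 4 each). Cdkn2d was 2.54 times as high (95% interval 1.85 to 3.47), a log2 difference of 1.34 (SE 0.21, edgeR adjusted p = 0.000173). It passed in all 18 settings, at 1.11 to 1.45, and was 1.43 without KO 4.

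Cdkn2a and Cdkn2b, neighbours on chromosome 4, did not pass. Cdkn2a (ENSMUSG00000044303.6, 89274471 to 89294653, minus strand) encodes p16Ink4a and, in another reading frame, p19Arf, which binds MDM2 and so protects p53. It had 39.3, 38.3, 36.2 and 35.3 CPM in KO 1 to KO 4, against 36.4, 41.2, 36.7 and 32.8 CPM in WT 1 to WT 4. The libraries lay close together, and the log2 difference was 0.02 (95% interval -0.216 to 0.253, edgeR adjusted p = 0.897). With TMM scaling, a change by more than a factor of 1.19 up or to under 0.861 down lies outside the interval. Its sign reversed with upper-quartile, ribosomal protein and cyclic loess scaling, which gave -0.219, -0.164 and -0.228 and no call. The upper-quartile and cyclic loess values lie just below that interval, which does not cover the choice of scaling. The 2 annotated transcripts share 575 exon bases and have 277 and 320 of their own, so the count does not separate p16Ink4a from p19Arf.

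Cdkn2b (ENSMUSG00000073802.5, 89306299 to 89311039, minus strand) encodes p15Ink4b, known in many cells as a target of TGF-beta. It had 6.29, 7.32, 7.38 and 8.16 CPM in KO 1 to KO 4, against 7.27, 7.67, 8.42 and 7.18 CPM in WT 1 to WT 4. The ranges overlapped almost wholly, and the log2 difference was -0.07 (95% interval -0.43 to 0.29, edgeR adjusted p = 0.752). The ratio of Cdkn2a to Cdkn2b counts was 4.32 to 6.24 in the libraries labelled KO and 4.36 to 5.38 in those labelled WT (exact permutation p = 0.571).

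Cdkn2c (ENSMUSG00000028551.14, chromosome 4, 109660876 to 109667189, minus strand) encodes p18Ink4c and had the fewest counts of the 8 genes, 46 to 66 per library. It had 3.71, 3.06, 4.87 and 3.47 CPM in KO 1 to KO 4, against 2.36, 3.49, 2.53 and 3.56 CPM in WT 1 to WT 4. The groups overlapped, and the log2 difference of 0.34 did not pass (95% interval -0.19 to 0.88, edgeR adjusted p = 0.261), though with cyclic loess it was 0.64 and passed (limma adjusted p = 0.0343). Cdkn2c had fewer counts than Cdkn2d in every library. There were 0.239 to 0.373 Cdkn2c counts per Cdkn2d count in the libraries labelled KO and 0.452 to 0.767 in those labelled WT. That log2 ratio differed by -1.03 (exact permutation p = 0.029, adjusted p = 0.0476 over 5 ratios).

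Per kb of exon, the level of Cdkn2a was the highest of all 8 genes under both labels, at 31.8 ± 1.57 CPM per kb in the libraries labelled KO and 31.4 ± 2.95 CPM per kb in those labelled WT (SD, n = 4 each). Cdkn2a made up 66.7% to 69.4% of the summed INK4 level per kb in the libraries labelled KO and 73.2% to 79.4% in those labelled WT. Cdkn2d made up 15.8% to 18.4% in the libraries labelled KO and 4.99% to 9.88% in those labelled WT. Cdkn2c was the lowest of all 8 genes under both labels, at 1.41 ± 0.289 CPM per kb in the libraries labelled KO and 1.11 ± 0.234 CPM per kb in those labelled WT.

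The full order per kb in the libraries labelled KO was Cdkn2a, Rb1, Cdkn2d, Cdkn1b, Cdkn2b, Rbl1, Rbl2 and Cdkn2c. There the ranges of Rb1 and Cdkn2d, of Cdkn1b and Cdkn2b, and of Cdkn2b and Rbl1 overlapped. In the libraries labelled WT the order was Cdkn2a, Cdkn1b, Rb1, Cdkn2b, Cdkn2d, Rbl2, Rbl1 and Cdkn2c. There Cdkn1b and Rb1, Rb1 and Cdkn2b, Cdkn2d and Rbl2, and Rbl2 and Rbl1 overlapped. Cdkn2d stood above Cdkn1b and Cdkn2b under the KO label and below both under the WT label.

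Cdkn1b (ENSMUSG00000003031.14, chromosome 6, 134920401 to 134925513, plus strand) encodes p27Kip1, whose protein level is set largely by its breakdown, so its RNA is only part of its control. It had 24.0, 29.0, 24.3 and 22.9 CPM in KO 1 to KO 4, against 29.3, 53.4, 30.8 and 21.9 CPM in WT 1 to WT 4. The spread was wide in the libraries labelled WT because WT 2 was far above the others, and WT 4 was below all 4 libraries labelled KO. The means were 25.0 ± 2.71 CPM in the libraries labelled KO and 33.8 ± 13.6 CPM in those labelled WT (SD, n = 4 each). The log2 difference of -0.43 did not pass (SE 0.218, 95% interval -0.90 to 0.04, edgeR adjusted p = 0.109). It was -0.12 without WT 2 (adjusted p = 0.509) and -0.58 without WT 4, when it passed (0.0250). It also passed under ribosomal protein (0.0317), upper-quartile (0.0206) and cyclic loess scaling (limma, 0.0446).

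**Figure D3:**
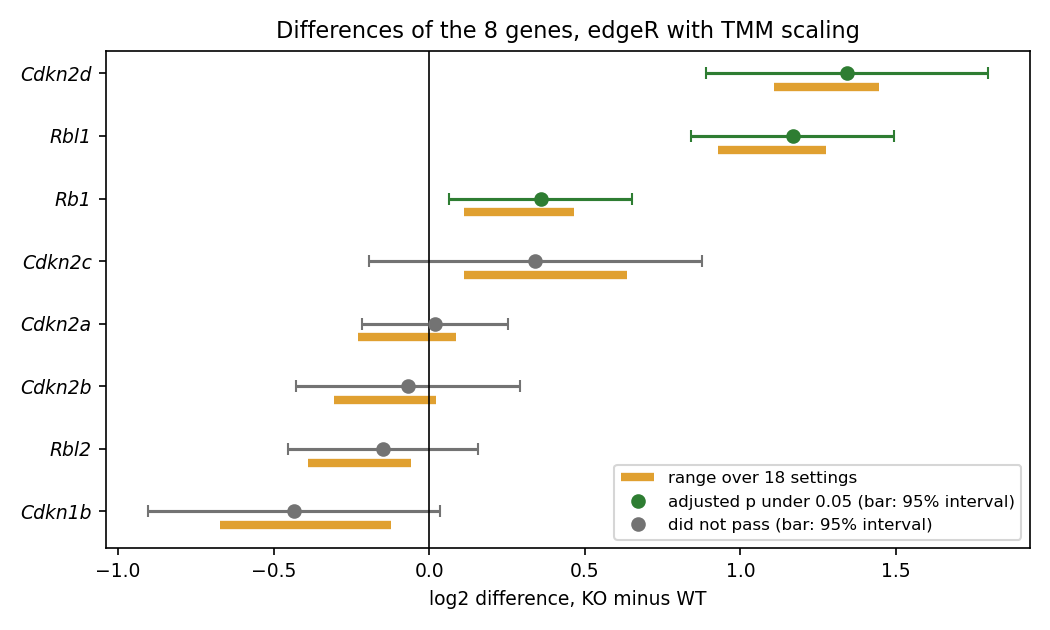
Log2 difference (horizontal axis, KO minus WT) of each of the 8 genes from edgeR with TMM scaling, with its 95% interval, and in orange the range of the difference over 18 settings. Cdkn2d and Rbl1 lie above 0.84 with their whole interval, and the orange range crosses 0 for Cdkn2a and Cdkn2b only.

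In the pathway lists around the 8 genes, most genes that passed were higher in the libraries labelled KO. Over all tested genes 53.5% passed, 25.3% higher and 28.2% lower, and no list was tested against these shares. All 3 other CDK inhibitor genes tested passed and were higher. Cdkn1a, which encodes the p53 target p21, had 18.7, 17.8, 13.1 and 14.3 CPM in KO 1 to KO 4, against 2.10, 1.92, 2.43 and 1.68 CPM in WT 1 to WT 4, a log2 difference of 2.96 (edgeR adjusted p = 3.94e-07). Cdkn1c, the imprinted gene of p57, rose by 1.12 (adjusted p = 5.61e-05). Cdkn3, which encodes a phosphatase that acts on CDK2, rose by 1.05 (adjusted p = 0.00191).

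Of the 9 genes for D and E cyclins with their kinases, 7 were higher, 0 lower and 2 did not pass. The kinase that p27 and cyclin E meet, Cdk2, rose by 1.18 (edgeR adjusted p = 7.36e-06) and its activating phosphatase Cdc25a by 1.56 (4.36e-07). The E cyclin genes rose too, Ccne1 by 1.40 (8.90e-05) and Ccne2 by 1.07 (0.000233). On the INK4 side Cdk6 rose by 1.12 (3.03e-05), Ccnd1 by 0.83 (0.00649) and Cdk4 by 0.33 (0.0200). The Cdk4 call was lost under ribosomal protein (0.301), upper-quartile (0.466) and cyclic loess scaling (0.507), and when WT 1 was left out (0.0656). Ccnd2 (0.07) and Ccnd3 (0.14) did not pass (adjusted p = 0.785 and 0.385), and both were below 0 with upper-quartile, ribosomal protein and cyclic loess scaling.

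Of 10 genes for E2F and DP factors, the partners of the pocket proteins, 7 were higher, 1 lower and 2 did not pass. E2f4, whose product is the main partner of p107 and p130, had 46.8, 46.0, 39.0 and 45.9 CPM in KO 1 to KO 4, against 17.3, 16.7, 18.4 and 18.8 CPM in WT 1 to WT 4. Its log2 difference was 1.32 (edgeR adjusted p = 2.02e-06), and E2f5, which also binds p130, rose by 0.90 (0.000156). The activators E2f1 and E2f3, partners of RB, rose by 0.94 (1.24e-05) and 1.63 (3.11e-05), and E2f2 (0.39) did not pass (0.243), though it did without WT 2 (0.66, 0.0455) and with cyclic loess (limma, 0.71, 0.0363). Of the factors that do not bind pocket proteins, E2f8 rose by 2.07 (2.62e-06), E2f7 (-0.08) did not pass (0.539) and E2f6 fell by 0.42 (0.0229). E2f7 was lower and passed with upper-quartile scaling (-0.32, 0.0168) and with cyclic loess (limma, -0.32, 0.0157). The E2f6 call did not hold with DESeq2 (0.0820), in the fit with replicate numbers as a block (0.0567), or when any one of KO 1, KO 3, KO 4, WT 1 and WT 3 was left out (0.0622 to 0.0975). The DP genes Tfdp1 and Tfdp2 rose by 0.61 (0.000335) and 0.74 (0.000386).

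The other partners of p107 and p130 split. Of 8 genes for the DREAM and MuvB complexes, 5 were higher, 2 lower and 1 did not pass. Foxm1 (1.16, edgeR adjusted p = 1.16e-05) and Mybl2 (1.03, 7.66e-05), which replace the pocket proteins on MuvB in cycling cells, rose, as did the core genes Lin9 (1.00, 0.000176) and Lin37 (0.93, 0.000301). Dyrk1a, whose kinase starts DREAM assembly in human cells, fell by 0.80, with 179 ± 6.06 CPM in the libraries labelled KO and 312 ± 24.9 CPM in those labelled WT (SD, n = 4 each, adjusted p = 2.06e-05). The MuvB gene Lin54 fell by 0.79 (0.000158). Of 20 genes that pocket proteins and E2F keep silent in resting cells, 20 were higher, with a median log2 difference of 1.45, and 19 were with upper-quartile, ribosomal protein or cyclic loess scaling. Those with the lowest p were Mki67 (3.00, 6.54e-09), Rrm2 (2.97, 1.86e-07), Ccna2 (1.87, 2.70e-07) and Mcm2 (1.52, 6.14e-07).

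Of 12 genes for turnover and transcription of p27, 7 were higher, 1 lower and 4 did not pass. Cks1b, whose product helps the SKP2 ligase to recognise p27, had 19.0, 18.3, 15.1 and 18.2 CPM in KO 1 to KO 4, against 6.66, 5.11, 7.30 and 7.38 CPM in WT 1 to WT 4, a log2 difference of 1.42 (edgeR adjusted p = 1.98e-05). Foxo3 and Foxo4, which encode activators of Cdkn1b, rose by 1.09 (1.60e-05) and 0.74 (7.74e-05). Skp1a, a core part of that ligase, fell by 0.39 (0.00979), a call that did not hold without KO 4 (0.0549) or WT 3 (0.0594).

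Of 12 genes that control the Cdkn2a-Cdkn2b locus or act with p19Arf, 6 were higher, 0 lower and 6 did not pass. That is near the 53.5% of all tested genes that passed. With upper-quartile, ribosomal protein and cyclic loess scaling, 5 were higher and 1 lower. Ezh2, whose product silences the locus through Polycomb, rose by 1.06 (edgeR adjusted p = 7.29e-05). Kdm6b, whose product removes that mark, rose by 1.41 (2.33e-06). The p19Arf partner gene Npm1 rose by 1.21 (4.05e-06) and Trp53 by 2.33 (2.19e-06). Of 5 germ cell arrest factors, 4 were higher: Dmrt1 by 1.45, Dazl by 0.71, Nanos2 by 1.66 and Nanos3 by 2.10. Nanos2 and Nanos3 were low, at means of 5.68 and 7.12 CPM under the KO label and 1.80 and 1.65 CPM under the WT label. Dnd1, whose loss in mice lets male germ cells miss the arrest, had a log2 difference of 0.08 (edgeR adjusted p = 0.773).

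**Figure D4:**
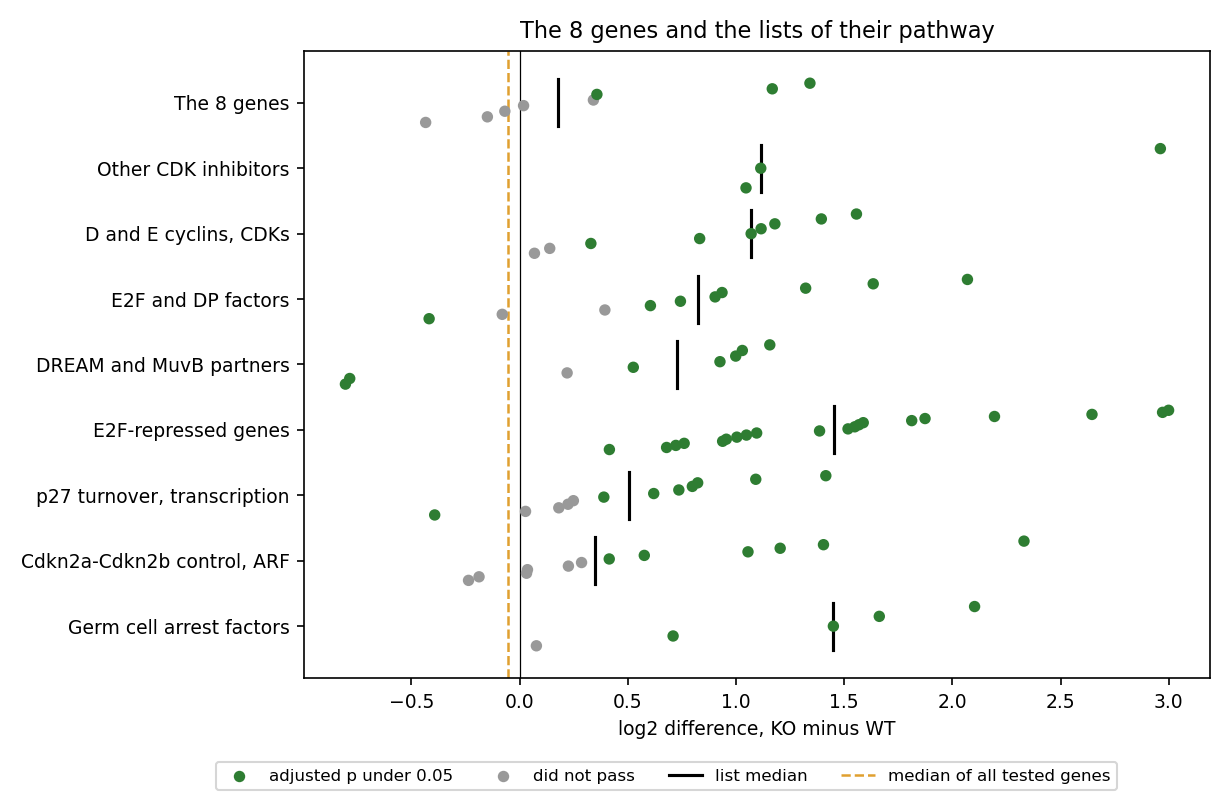
Log2 difference (horizontal axis, KO minus WT) of every gene in the 8 genes (top row) and in each list of their pathway; green points passed at an adjusted p under 0.05, black bars are list medians and the dashed line is the median of all tested genes, -0.05. The top row spans -0.43 to 1.34 with a median of 0.18, and all 20 E2F-repressed genes are green and above 0.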

How the data were processed

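The authors deposited a table of raw, whole-number gene counts, 1 column per library. DESeq2, edgeR, featureCounts 1.5.0, STAR, Trim Galore and mm10 are named, without roles, per the submitters' processing notes. The annotation release, any use of UMIs and the strand setting were not given in the sources used here. Of 55401 genes, 55141 matched GENCODE M21 (GRCm38) without the version. Genes kept by filterByExpr (24005) were TMM-scaled and tested with edgeR 4.0.16 (quasi-likelihood, genotype only), adjusted over all by Benjamini-Hochberg. SEs come from its F statistic and intervals are 95%. Levels per kb use merged exon lengths. Ratios used counts plus 0.5. DESeq2 1.42.0 and limma 3.58.1 were alternatives, and cyclic loess was added after seeing the data. A count of 0 allows 3 counts, 0.146 to 0.221 CPM. Replicates differed beyond counting noise (chi-square per degree of freedom from 6.54 to 22.8). Members and lists were chosen with earlier results of these data known. From each list, up to 4 passing genes per direction with the lowest p were named, and all genes of the CDK inhibitor, cyclin and E2F lists, except 1 gene that is not reported here; Dnd1 was named after its value was seen.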

Additional observations from a re-analysis of the deposited data

Results flagged for a closer look

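Of 26 groups of 4 libraries examined (8 genes and 5 ratios under 2 labels), 1 held a library far from the others, and chance gives about 1 in 20 such groups. In the log2 ratio of Rbl1 to Rb1 counts, WT 2 had -2.16, against -1.23, -1.37 and -1.30 in WT 1, WT 3 and WT 4. Its gap to the nearest library was 0.849 of the whole range, above the 95% critical value of Dixon's test for 4 samples. WT 2 also had the highest Cdkn1b level and the lowest Rbl1 level of the libraries labelled WT.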

How the results depend on the processing

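Cdkn2d and Rbl1 kept direction and call in all 17 alternatives. Rb1 lost its call under ribosomal protein (log2 difference 0.165) and upper-quartile scaling (0.12), the stricter filter of CPM 1 or more in 4 libraries (0.32, adjusted p = 0.0621) and cyclic loess (0.11). Cdkn1b gained one with upper-quartile (-0.67), ribosomal protein (-0.63) and cyclic loess scaling (-0.59), Rbl2 with upper-quartile scaling (-0.39) and Cdkn2c with cyclic loess (0.64). So the members passing lower, 0 in the reported fit, were 2 under upper-quartile, 1 under ribosomal protein and 1 under cyclic loess scaling, and 0 to 1 with a library left out. Higher calls over all genes were 4033 with upper-quartile scaling, against 6083. Cdkn2a changed sign with upper-quartile (-0.22), ribosomal protein (-0.16) and cyclic loess scaling (-0.23) and the stricter filter (-0.022). Ccnd2 did with upper-quartile (-0.17), ribosomal protein (-0.11) and cyclic loess scaling (-0.15), and Ccnd3 with these in the same order (-0.10, -0.037 and -0.11). Where no cause is named, the cause was not tested.

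With each library left out in turn, log2 differences ran from 1.17 to 1.45 for Cdkn2d, 1.07 to 1.27 for Rbl1, 0.30 to 0.46 for Rb1, -0.58 to -0.12 for Cdkn1b, -0.016 to 0.081 for Cdkn2a, -0.10 to 0.021 for Cdkn2b and -0.064 to 0.24 for Ccnd2. The ratio differences ran from 1.21 to 1.40 for Rbl1 to Rbl2, 0.60 to 0.91 for Rbl1 to Rb1, -1.17 to -0.92 for Cdkn2c to Cdkn2d and -0.002 to 0.17 for Cdkn2a to Cdkn2b. With 7 libraries the adjusted exact permutation p of the ratios cannot pass.

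The deviations of same-numbered libraries correlated at 0.278, -0.27, -0.17 and -0.04 for numbers 1 to 4 (17546 genes), so the numbers were not taken as pairs. KO 1 and WT 1, the pair at 0.278, also share a number in their library names, whose meaning is not given in the labels. KO 1 correlated best with WT 1, but so did KO 4, and the other libraries share no such number. With the replicate number as a block 11518 genes passed, against 12853, and 3 of the 8 members, with Rb1 at an edgeR adjusted p of 0.0499. In paired form the ratio differences of Rbl1 to Rbl2 (1.33), Rbl1 to Rb1 (0.81) and Cdkn2c to Cdkn2d (-1.03) had an adjusted exact p of 0.156, where 16 sign flips give no p below 0.125. A search of only the bases before the start found the same 2 promoters with an E2F match. Cdkn2c had the fewest counts, and its interval is the widest of the 8.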

Other observations

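The promoters of the 8 genes differed in CpG content. Observed over expected CpG was 1.04 for Cdkn1b, 1.04 at the outer and 0.442 at the inner start of Cdkn2a, 0.946 for Rbl1, 0.727 for Rbl2, 0.722 for Cdkn2b, 0.681 for Cdkn2d, and 0.823 and 0.553 at the outer and inner start of Cdkn2c. The median over all 32851 promoters was 0.384.

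After group means were removed, the protein-coding genes whose log2(CPM + 1) ran most like each member over the 8 libraries were found among 10422 genes. They were Sec13 (Pearson r = 0.996) and Atp10a (0.983) for Rb1, Rbm25 (0.99) and Ttll5 (0.983) for Rbl1, and Msh3 (0.954) and Psen2 (0.952) for Rbl2. For Cdkn1b they were Trp53i11 (0.994) and Hivep2 (0.985), for Cdkn2a Adgrf5 (0.976) and Ebag9 (0.972), and for Cdkn2b Ddit3 (0.957) and Ak3 (0.926). For Cdkn2c they were Map3k14 (0.971) and Zbtb24 (0.956), and for Cdkn2d Zfp41 (0.96) and Pkmyt1 (0.944). With 8 libraries sharing depth and scaling these values are a description.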
